A study of Saccharomyces cerevisiae with 12 samples.

Results

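The genes described here are those that set the α mating type of a haploid *Saccharomyces cerevisiae* cell or are expressed specifically in α cells. They were taken by name from the 7130 genes of the deposited tables and number 7, namely the 5 α-specific genes *MF(ALPHA)1*, *MF(ALPHA)2*, *STE3*, *SAG1* and *AFB1* (listed as YLR040C), and the 2 genes of the *MAT*α locus, *MATALPHA1* (YCR040W) and *MATALPHA2* (YCR039C). Beyond their role they were selected on their FPKM ratios in the *GLN4* shut-off strain, which were already known. Those ratios are therefore given as a description without a test, whereas the ratios in the wild type did not enter the choice and were tested. Of the 7 genes, 5 had an FPKM above 0 and could be given a ratio in both strains, and the 2 *MAT*α genes are listed at 0 throughout.

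RNA was sequenced from 12 cultures of 2 haploid strains, with 3 independent cultures in each of 4 conditions. The wild type BY4742 (*MAT*α *his3D1 leu2D0 lys2D0 ura3D0*) was grown in YEPD to mid-log phase in plain medium or with 1 μg/ml doxycycline. The tetO-*GLN4* strain McFY2 shares those alleles and carries the cassette KanMX4-tTA-tetO7 in place of the promoter of *GLN4*, the glutaminyl tRNA synthetase gene, so that doxycycline shuts the gene off; it was grown in the same 2 ways. Both strains and all 4 conditions are thus *MAT*α haploids, the shut-off is represented by a single strain, and every treated culture was exposed to the drug before harvest. The values are FPKM (fragments per kilobase of gene, scaled to the number of mapped fragments), 1 per gene and condition, in which the authors combined the 3 cultures, with a 95% confidence interval. The spread between single cultures and the read depth are unknown.

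In the wild type, *GLN4* had an FPKM of 199.3 without and 199.2 with doxycycline. In tetO-*GLN4* it had 30.5 (95% interval 24.1 to 36.9) with the drug, and without it the gene is listed at 0 with a status that marks too many fragments to process, so no ratio of the targeted gene can be given. That 0 does not mean absence. The paper describes the doxycycline-responsive promoter as stronger than the native *GLN4* promoter, without showing the data. Untreated tetO-*GLN4* is therefore not a control with a wild-type level of *GLN4*. Of the genes that could be tested, a z test from the confidence intervals, adjusted over all genes by the Benjamini-Hochberg method, called 7 of 6560 as changed by doxycycline in the wild type (0.107%) and 2554 of 6553 in the shut-off strain (39.0%). The summed FPKM of all genes was 2442140 in untreated and 2435210 in treated wild type, 2620990 in untreated and 1700080 in treated tetO-*GLN4*. Centring tetO-*GLN4* on the FPKM-weighted mean of all ratios, the scaling alternative with the largest effect, would raise every log2 ratio there by 0.67. The directions below hold on the deposited scale, and where that centring turns one for a named gene or changes the split of a list, its value is given too.

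Mating type in budding yeast is set by the *MAT* locus. In α cells *MATALPHA1* encodes the activator α1, which binds with the general factor Mcm1 upstream of the α-specific genes, and *MATALPHA2* encodes the repressor α2, which with Mcm1 and the corepressor Tup1-Cyc8 holds the a-specific genes down. The α-specific genes supply what an α cell needs to find a partner, that is the pheromone α-factor, the receptor for a-factor, an agglutinin for adhesion and a blocker of a-factor. Silent copies of the mating-type genes lie at *HML* and *HMR* on the same chromosome and are kept off by the Sir proteins.

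The 5 α-specific genes were among the more abundant transcripts in 3 of the 4 conditions and were 18.1-fold to 79.0-fold lower in tetO-*GLN4* grown with doxycycline. *MF(ALPHA)1* (YPL187W, chromosome XVI, 193648 to 194145 on the forward strand) encodes the main precursor of α-factor. Its FPKM was 12098 (95% interval 9037 to 15159) in untreated and 11296 (8476 to 14116) in treated wild type, and 11956 (9304 to 14609) in untreated and 191 (152 to 230) in treated tetO-*GLN4*. The treated tetO-*GLN4* cells stood alone, below the other 3 conditions with no overlap of intervals, and the level was 62.7-fold lower than without the drug (95% interval 46.7 to 84.2). *MF(ALPHA)1* went from the 28th place of the genes listed above 0 in untreated tetO-*GLN4* to place 1233 in treated tetO-*GLN4*.

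*MF(ALPHA)2* (YGL089C, chromosome VII, 344791 to 345153 on the reverse strand) encodes the minor α-factor precursor. It had an FPKM of 4465 (3519 to 5411) in untreated and 4055 (3213 to 4896) in treated wild type, and of 4373 (3334 to 5411) in untreated and 55.4 (41.3 to 69.4) in treated tetO-*GLN4*. This gene had the lowest log2 ratio of all 6553 genes with a ratio in tetO-*GLN4* (-6.30, 95% interval -6.80 to -5.81), which is a level 79.0-fold lower. The level of *MF(ALPHA)1* relative to *MF(ALPHA)2* was 2.71 (1.83 to 3.59) and 2.79 (1.90 to 3.67) in untreated and treated wild type, and 2.73 (1.86 to 3.61) and 3.45 (2.34 to 4.55) in untreated and treated shut-off cells. All 4 intervals of this proportion overlap.

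Each precursor carries repeats of the mature pheromone, and the repeats are shown because they are the part in which the genes resemble each other and in which *MF(ALPHA)1* resembles itself. A search of the R64 reference for the pheromone's 13 codons found 4 copies in *MF(ALPHA)1* and 2 in *MF(ALPHA)2*. They are printed 5′ to 3′ on the coding strand, with capitals at bases that differ from the first copy of *MF(ALPHA)1*.
MF(ALPHA)1 copy 1, chrXVI:193915-193953: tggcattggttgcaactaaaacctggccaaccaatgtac
MF(ALPHA)1 copy 2, chrXVI:193978-194016: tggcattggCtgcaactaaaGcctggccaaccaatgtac
MF(ALPHA)1 copy 3, chrXVI:194041-194079: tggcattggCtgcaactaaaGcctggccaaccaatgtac
MF(ALPHA)1 copy 4, chrXVI:194104-194142: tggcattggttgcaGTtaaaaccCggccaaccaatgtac
MF(ALPHA)2 copy 1, chrVII:344857-344895: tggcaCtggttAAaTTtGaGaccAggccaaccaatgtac
MF(ALPHA)2 copy 2, chrVII:344794-344832: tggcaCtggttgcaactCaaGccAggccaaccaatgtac
Within *MF(ALPHA)1* the copies differ at 2 or 3 of 39 bases from the first, and all 4 encode the same peptide. The copies in *MF(ALPHA)2* differ at 8 and 4 bases, and the first of them encodes a variant peptide. No stretch of 36 bases is shared by the 2 genes, so that an exact match of that length could be assigned to 1 of them. Of the 36-base windows of *MF(ALPHA)1*, 80.1% occur once in the genome, and of those of *MF(ALPHA)2* 100%.

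*STE3* (YKL178C, chromosome XI, 113215 to 114627 on the reverse strand) encodes the receptor for a-factor. Wild-type cells had an FPKM of 562.7 (438 to 687) untreated and 562.2 (438 to 686) treated, whereas tetO-*GLN4* cells had 611 (460 to 762) untreated and 11.5 (8.69 to 14.3) treated. The level in treated tetO-*GLN4* was 53.1-fold lower than in untreated tetO-*GLN4* (37.7 to 74.7) and the lowest of the 5 genes in any condition. The listed gene YKL177W lies in the same locus of the authors' tables, and it followed *STE3*, with FPKM values of 517 untreated and 524 treated for wild-type cells and 564 and 9.66 for tetO-*GLN4* cells. The strand setting used in counting is not given, so reads of the 2 genes cannot be told apart.

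*SAG1* (YJR004C, chromosome X, 442909 to 444861 on the reverse strand) encodes α-agglutinin, the cell surface protein that binds the agglutinin of a cells. Untreated and treated wild type had 1207 (920 to 1493) and 1122 (861 to 1383) FPKM, and untreated and treated tetO-*GLN4* had 1728 (1337 to 2120) and 39.5 (31.6 to 47.5). The treated level in tetO-*GLN4* was thus 43.7-fold lower than the untreated one (32.5 to 58.8). The untreated strains had overlapping intervals for *SAG1*, and the values come from tables that were normalized separately.

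*AFB1* (YLR040C, chromosome XII, 228908 to 229582 on the reverse strand) encodes a secreted barrier that lowers the activity of a-factor. The gene was measured at 850 (665 to 1035) FPKM in untreated and 871 (683 to 1059) in treated wild type, and at 886 (664 to 1107) in untreated and 49.0 (37.1 to 60.9) in treated tetO-*GLN4*. The level in treated tetO-*GLN4* was 18.1-fold lower (12.8 to 25.4). The interval of this fold does not reach those of the other 4 α-specific genes, which overlap one another from *MF(ALPHA)2* down to *SAG1*. YLR041W shares the locus of *AFB1*, with 478 and 457 FPKM in untreated and treated wild type and 488 and 46.6 in untreated and treated tetO-*GLN4*. Its log2 ratio in tetO-*GLN4* was -3.39 (95% interval -4.60 to -2.18). Reads of *AFB1* and YLR041W cannot be told apart either, so the fold of *AFB1* may depend on how they were divided.

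**Figure D1:**
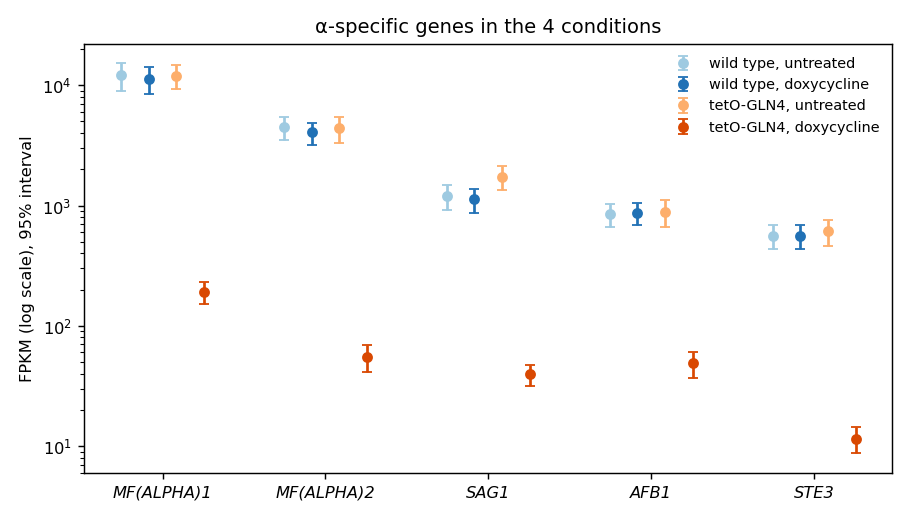
FPKM of the 5 α-specific genes on a log axis in the 4 conditions. Points are the authors' value over 3 cultures and bars its 95% confidence interval; in each gene the treated tetO-*GLN4* value (11.5 to 191) lies below the other 3.

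The order of levels was the same in both wild-type conditions and in untreated tetO-*GLN4*, namely *MF(ALPHA)1*, *MF(ALPHA)2*, *SAG1*, *AFB1* and *STE3*. *STE3* and *AFB1* share their loci with YKL177W and YLR041W, and how reads were divided between such genes is not given. The levels of *STE3* and *AFB1*, and so their places in the order, may depend on that division. In the wild type the intervals of *SAG1* and *AFB1*, and of *AFB1* and *STE3*, overlapped, and all other neighbours in the order were apart. In untreated tetO-*GLN4* the intervals of *AFB1* and *STE3* alone overlapped. In treated tetO-*GLN4* the order was *MF(ALPHA)1*, *MF(ALPHA)2*, *AFB1*, *SAG1* and *STE3*, and those of *MF(ALPHA)2*, *AFB1* and *SAG1* overlapped between neighbours. The highest level was 21.5 times the lowest in untreated and 20.1 times in treated wild type, 19.6 times in untreated and 16.6 times in treated tetO-*GLN4*. In the 3 conditions with high levels the 5 genes lay between percentiles 92.8 and 99.6 of the genes listed above 0. In treated tetO-*GLN4* they were spread between percentile 11.4 for *STE3* and 81.3 for *MF(ALPHA)1*.

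As a check of the labelled mating type, the α-specific genes were set against 7 a-specific genes, which in the wild type had levels of 1.90 (*ASG7*) to 88.3 (*MFA1*) FPKM without doxycycline. The summed FPKM of the 5 α-specific genes was 19182 in untreated and 17906 in treated wild type, 19554 in untreated and 346 in treated tetO-*GLN4*. For the 7 a-specific genes these sums were 186, 169, 158 and 281 in the same order. The α-specific sum was thus 103, 106 and 124 times the a-specific sum in the first 3 conditions, as the *MAT*α label has it, and 1.23 times in treated tetO-*GLN4*. There the a-specific sum rested largely on *MFA1* (141 FPKM) and *MFA2* (76.5 FPKM), neither of which was called. The α-specific genes were chosen with their ratios in tetO-*GLN4* known, so the value of 1.23 is a description and no check of mating type. In a pool of cells, fewer cells that express a gene and less RNA per cell cannot be told apart.

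Whether doxycycline itself alters these genes was examined in the wild type. The z test called 0 of the 5 α-specific genes, where it called 0.107% of all genes, and 0 of the 5 had confidence intervals that lay apart, where 0.152% of all genes did. Their log2 ratios were -0.10 for *MF(ALPHA)1* (95% interval -0.60 to 0.40), -0.14 for *MF(ALPHA)2* (-0.56 to 0.28), -0.0012 for *STE3* (-0.44 to 0.44), -0.11 for *SAG1* (-0.57 to 0.36) and 0.03 for *AFB1* (-0.40 to 0.47). The unadjusted p from the z test ranged from 0.516 for *MF(ALPHA)2* to 0.996 for *STE3*, and the adjusted p was 0.9999 for each. The intervals leave room for changes as large as a 1.52-fold lower level (*MF(ALPHA)1*). The test gave an unadjusted p under 0.05 for 27 of 6560 genes in this strain. This is far below the share of 0.05 that a calibrated test gives where nothing changes. The z test was thus conservative in the wild type, and the absence of calls there is weak evidence that a gene did not change.

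In tetO-*GLN4* the log2 ratios of the 5 genes had a median of -5.73, beside 0.01 over all tested genes, and in the wild type a median of -0.10 beside -0.0031. The confidence intervals with and without doxycycline lay apart, with the treated value lower, for 5 of 5 in tetO-*GLN4*, where this was so for 16.1% of all genes with a ratio. Since the genes were chosen with this contrast known, the count describes them and is no evidence. Centred on the FPKM-weighted mean their log2 ratios were between -5.63 (*MF(ALPHA)2*) and -3.50 (*AFB1*).

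**Figure D2:**
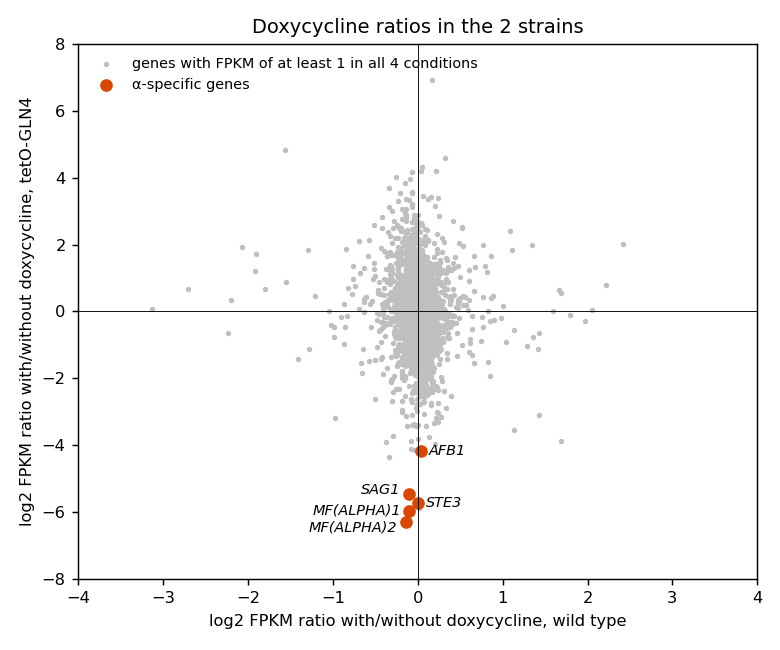
The log2 FPKM ratio with over without doxycycline in the wild type (x axis) against that in tetO-*GLN4* (y axis) for 6348 genes with an FPKM of at least 1 in all 4 conditions. The 5 α-specific genes (orange) lie near 0 on the x axis and between -6.30 and -4.18 on the y axis.

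The genes whose pair of log2 ratios lay nearest to the mean of the 5 α-specific genes (-0.06 for wild-type and -5.53 for tetO-*GLN4* cells) were sought among the same 6348 genes by Euclidean distance. The measure rests on 4 conditions. The nearest was YKL177W, the gene that overlaps *STE3*, at a distance of 0.35. The next were *INO1* (inositol 3-phosphate synthase) at 1.20, and then *IMD2* (inosine monophosphate dehydrogenase), *MRH1* (a plasma membrane protein) and *MGA1* at 1.38 to 1.42. Their log2 ratios in tetO-*GLN4* lay between -4.36 for *INO1* and -4.11 for *MGA1*. Apart from YKL177W, each was thus above the ratios of *MF(ALPHA)1*, *MF(ALPHA)2*, *STE3* and *SAG1* in tetO-*GLN4*. *INO1* also differed in level, at 6.28 and 4.97 FPKM in untreated and treated wild type and at 333 and 16.2 in untreated and treated tetO-*GLN4*.

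The regulators encoded at *MAT* could not be followed. *MATALPHA2* (chromosome III, 199546 to 200178 on the reverse strand) and *MATALPHA1* (200442 to 200969 on the forward strand) are listed at 0 FPKM in all 4 conditions with a normal status, also in the 3 conditions in which the genes activated by α1 were abundant. The upper bounds given with these zeros were 0.133 for *MATALPHA1* and 0.111 for *MATALPHA2* in the wild type. Both silent copies, *HMLALPHA1* and *HMLALPHA2*, and *HMRA2* at *HMR* are likewise listed at 0 in every condition. In the R64 sequence *MATALPHA1* and *HMLALPHA1* are identical over all 528 bases, and *MATALPHA2* and *HMLALPHA2* over all 633. The identical block that holds both genes is 1682 bases long, from 199496 to 201177 at *MAT* and from 12336 to 14017 at *HML*. The first 60 bases of the α1 gene are shown as an example of sequence that fits both places, with the start codon in capitals.
MATALPHA1, chrIII:200442-200501, and HMLALPHA1, chrIII:13282-13341: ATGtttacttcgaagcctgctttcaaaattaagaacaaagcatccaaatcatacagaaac

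Sequence that occurs more than once was then set against the zeros of the whole table. Each of the 6048 listed genes found in the R64 annotation was cut into overlapping windows of 50 bases, and the share of windows that occur once in the genome was counted. *MATALPHA1*, *MATALPHA2*, *HMLALPHA1*, *HMLALPHA2* and *HMRA2* have no such window. All 96 genes without any unique window are listed at 0 in all 4 conditions, whereas of 5666 genes with at least 90% unique windows 52 are (0.918%). With windows of 36 bases 97 of 99 genes without a unique window are listed at 0, and with 75 bases 90 of 90. The *MAT* zeros thus fall in a class of genes that has no value above 0 at 50 bases, and say nothing on the mRNA level of α1 or α2. How the authors' processing treated reads that match several places is not given in the sources used here.

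**Figure D3:**
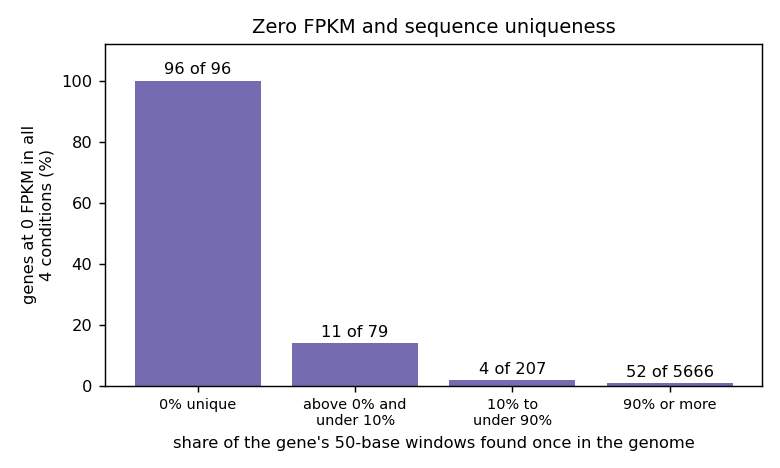
Share of genes listed at 0 FPKM in all 4 conditions (y axis, %) by the share of a gene's 50-base windows that occur once in the R64 genome (x axis). Numbers above the bars are genes at 0 of genes in the class; the leftmost bar, which holds both *MAT*α genes, stands at 96 of 96.

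Among the silent copies *HMRA1*, which encodes the a1 protein that pairs with α2 in diploids, consists of unique windows only. It is listed at 0 in both wild-type conditions and in untreated tetO-*GLN4*, and at 0.0445 FPKM (95% interval 0 to 0.234) in treated tetO-*GLN4*. Near the *MAT* block, *BUD5* (YCR038C), a bud site regulator that overlaps the end of *MATALPHA2*, had FPKM values of 7.67, 7.80, 9.08 and 10.7 in the order wild type untreated, wild type treated, tetO-*GLN4* untreated and tetO-*GLN4* treated. YCR041W, which overlaps the end of *MATALPHA1* and has 23.2% unique windows, had 16.7, 16.2, 14.1 and 18.3. YCR038W-A, listed in the same place, had values of at most 1.87. None of these 3 genes was called in tetO-*GLN4*.

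Position along the chromosomes was not used to choose the genes and was examined next. The 5 α-specific genes lie on 5 chromosomes and each has a single coding exon. Of the 12 nearest listed genes on either side of the 5 genes and of the *MAT* block, 2 were called higher, 3 lower and 7 not called with doxycycline in tetO-*GLN4*, where 39.0% of all genes were called. After centring on the FPKM-weighted mean the split was 7 higher and 1 lower (YLR042C), so that it depends on the scaling. Their median log2 ratio was -0.17 and they ranged from -2.14 to 1.16. *MF(ALPHA)1* lies between *POS5*, a mitochondrial NADH kinase gene (log2 ratio 1.16, called higher), and *UIP4* (0.68, called higher). *MF(ALPHA)2* lies between *LIF1*, a DNA ligase partner (-0.54, called lower), and YGL088W (-1.32, with an interval of -7.82 to 5.19). *STE3* is flanked by *COY1* (-0.28) and *LST4* (-0.10), neither of which was called, and which stood at 0.39 and 0.57 after centring, with *LST4* called higher.

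*SAG1* is flanked by YJR003C (0.18, not called) and *APL1*, an adaptor subunit gene (-0.54, called lower). *AFB1* lies between *RIC1* (-0.21, not called) and YLR042C, whose FPKM fell from 138 to 31.3 in tetO-*GLN4*, a log2 ratio of -2.14 (95% interval -2.61 to -1.67). The *MAT* block is flanked by *PHO87*, a phosphate transporter gene (-0.13), and *TAF2*, which encodes a TFIID subunit (0.27), and neither was called. Where confidence intervals that lie apart were asked for in place of the z test, 1 neighbour was higher (*POS5*) and 1 lower (YLR042C). After centring on the FPKM-weighted mean, *LIF1* and *APL1* stood at 0.13 and 0.14 and were not called, while *RIC1* and *PHO87* turned to 0.47 and 0.55 and were called higher. YJR003C and *TAF2*, above 0 on both scales, were called higher after centring as well.

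**Figure D4:**
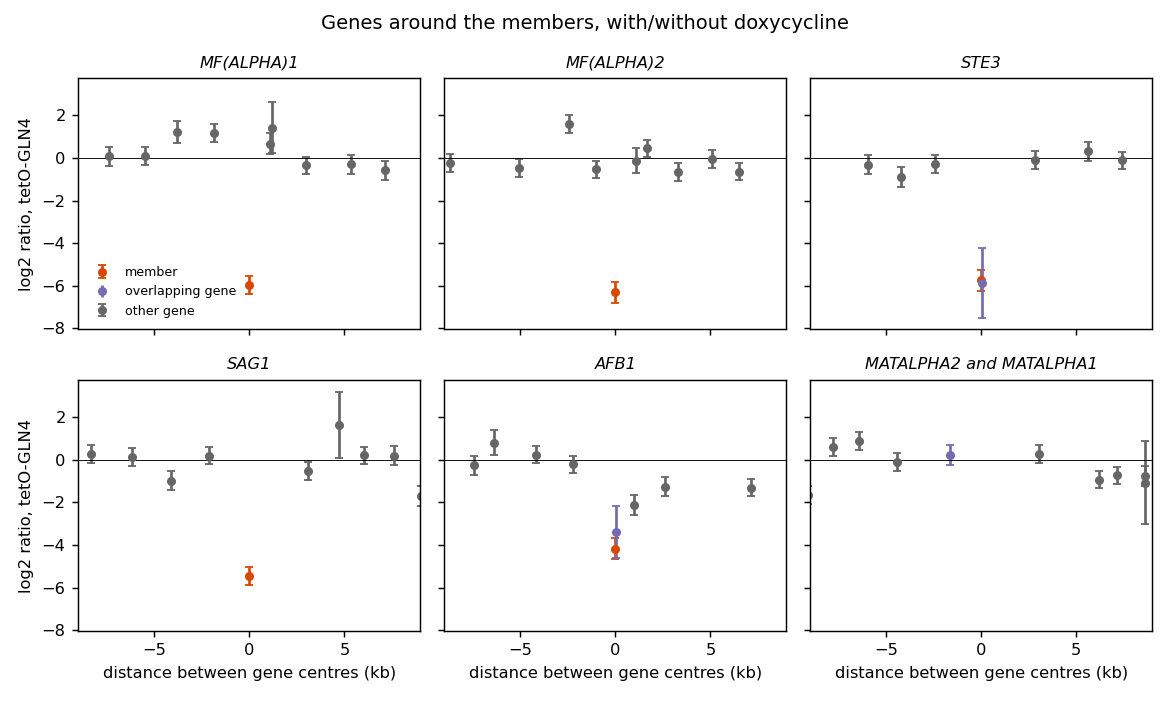
The log2 FPKM ratio with over without doxycycline in tetO-*GLN4* (y axis, with 95% intervals) of genes around each α-specific gene and around the *MAT* block, by the distance between gene centres in kb (x axis). Genes without a ratio or with an interval wider than 4 log2 units are left out. The α-specific gene (orange) lies below its non-overlapping neighbours shown in each of the 5 panels that has one.

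What the genes share upstream was looked up in the R64 sequence, in the 500 bases before each start codon. Matches were sought on both strands for TAATTAGG, one side of the palindrome bound by Mcm1, for CAATGNCAG, the core of the element bound by α1, and for TGAAACA, the site of the pheromone-response factor Ste12; the motifs were settled after several spellings had been tried. TAATTAGG was found upstream of *MF(ALPHA)1*, *STE3* and *SAG1*, and of 98 of 6028 genes (1.63%). CAATGNCAG was found upstream of *MF(ALPHA)2*, *STE3* and *SAG1*, and of 88 of 6028 (1.46%). TGAAACA was found upstream of *MF(ALPHA)2*, *SAG1* and both *MAT*α genes, which share 1 intergenic region, and of 722 of 6028 (12.0%). For *AFB1* no match to the 3 motifs was found in this window.

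Stretches of 60 bases around the matches nearest to each other are given 5′ to 3′ on the strand of the gene, with matches to TAATTAGG and CAATGNCAG in capitals (on a palindrome both orientations overlap).
MF(ALPHA)1, chrXVI:193318-193377, forward strand: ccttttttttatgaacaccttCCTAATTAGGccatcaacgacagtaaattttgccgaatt
MF(ALPHA)2, chrVII:345414-345473, reverse strand: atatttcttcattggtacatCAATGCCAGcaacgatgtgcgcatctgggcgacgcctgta
STE3, chrXI:114928-114987, reverse strand: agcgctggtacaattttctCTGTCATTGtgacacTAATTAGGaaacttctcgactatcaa
SAG1, chrX:445177-445236, reverse strand: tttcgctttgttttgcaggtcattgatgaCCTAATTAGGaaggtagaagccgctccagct
Counted back from the start codon at 0, the first match in each stretch begins at position -309 in *MF(ALPHA)1*, -300 in *MF(ALPHA)2*, -341 in *STE3* and -346 in *SAG1*. Both motifs stand in the stretch of *STE3*. The CAATGNCAG match of *SAG1*, at -270, and a further TAATTAGG match of *MF(ALPHA)1*, at -362, lie outside the stretches shown. A match describes the letters only, and binding was not measured.

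Other genes of the mating pathway were read from lists, chosen with earlier results of these data known, of which 35 of 39 genes had a ratio. In tetO-*GLN4*, 14 of the 35 fell (beside 20.1% of all genes) and 8 rose (beside 18.9%), while in the wild type 0 of the 35 were called. A fall or rise is relative to untreated tetO-*GLN4*, which was normalized separately from the wild type. Some genes that fell stood higher there than in untreated wild type, among them *MCM1*, *STE4*, *KSS1*, *STE13*, *YCK1* and *DIG1*. After that centring 7 were called lower and 17 higher, so that the split depends on the scaling. Among the factors that act at α-specific and a-specific promoters, 5 of 6 fell in tetO-*GLN4*, with a median log2 ratio of -0.93. *MCM1*, the partner of α1 and α2, fell from 283 (221 to 346) to 104 (83.4 to 125) FPKM, a log2 ratio of -1.44. In the wild type *MCM1* had 183 (147 to 219) FPKM untreated and 185 (149 to 222) treated, between those values. *STE12* fell from 84.5 to 31.6 FPKM (-1.42) and *TUP1* from 98.8 to 43.4 (-1.19). *CYC8*, the partner of *TUP1*, and *DIG1*, an inhibitor of Ste12, fell by less (-0.68 and -0.58). After centring, *DIG1* stood at 0.10 and neither it nor *CYC8* was called. *DIG2*, the second inhibitor, had a log2 ratio of 0.03 and was not called, but stood at 0.70 and was called higher after centring.

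The 4 *SIR* genes, whose products silence *HML* and *HMR*, had a median log2 ratio of 0.15. *SIR1* rose from 9.71 to 20.3 FPKM (log2 ratio 1.06). *SIR2*, *SIR3* and *SIR4* had log2 ratios of -0.46, 0.29 and 0.0007 and were not called. On the centred scale *SIR3* and *SIR4* were called higher as well, and *SIR2* stood at 0.21. Of the proteases that mature α-factor, *KEX2* and *STE13* fell (-0.64 and -0.57) and *KEX1* stood at 0.22 without being called. After centring *KEX2* and *STE13* stood at 0.03 and 0.10 and were not called, and *KEX1* was called higher at 0.89.

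Of the G protein that couples the pheromone receptors and its regulator, 3 of 4 genes fell. *SST2*, the regulator that ends signalling, fell from 124 to 18.9 FPKM (-2.71), and the α subunit gene *GPA1* from 158 to 45.8 (-1.78). The β subunit gene *STE4* had a log2 ratio of -1.63 and fell, and the γ subunit gene *STE18* had 0.59 and was not called. These 3 decreases were called on the centred scale too, where *STE18* was called higher. In the pheromone MAP kinase module 3 of 8 genes fell and 1 rose, where 20.1% of all genes fell and 18.9% rose, with *FAR1*, the cell-cycle inhibitor, at -2.33 and the kinase gene *KSS1* at -1.13 as the lowest. *KSS1* went from 71.0 to 32.5 FPKM, beside 37.3 in untreated wild type, so its treated level was near that of the wild type. *FAR1* went from 109 to 21.6 FPKM, beside 109 in untreated wild type. *STE11*, a kinase gene of the module, had the highest log2 ratio and rose (0.92), followed by *STE7* at 0.36, which was not called. After centring the module had 4 genes called higher and 1 lower (*FAR1*), and its median went from -0.16 to 0.51. On that scale *KSS1* and *FUS3* stood at -0.46 and -0.37 and were not called, *STE20* turned to 0.27 without a call, and *STE7*, *STE5* and *STE50* were called higher beside *STE11*. Of 3 genes for Ste3 turnover, *AKR1* rose (0.80), *YCK1* fell (-0.52, but 0.15 and not called after centring) and *YCK2* stood at -0.31 (0.36 after centring) without being called on either scale.

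The a-specific genes, which are repressed by α2, rose in 5 of 7 cases in tetO-*GLN4*, beside 18.9% of all genes, with a median log2 ratio of 1.13. *BAR1*, the protease that degrades α-factor, rose from 3.67 (2.66 to 4.68) to 9.43 (7.21 to 11.6) FPKM, a log2 ratio of 1.36, and *ASG7* from 4.03 to 9.87 (1.29). The smallest log2 ratios were those of *MFA2* (0.43, not called) and *STE2*, the α-factor receptor gene (0.62, called higher). In treated tetO-*GLN4* the 5 called genes had low levels, between percentiles 9.65 and 19.0 of the genes listed above 0. *MFA1* and *MFA2*, which were not called, stood higher there, at 141 FPKM (percentile 75.4) and 76.5 FPKM (percentile 59.6). By intervals that lie apart, 3 of the 7 were higher, beside 15.0% of all genes, and after centring 6 of the 7, with *MFA1* among them, were called higher.

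**Figure D5:**
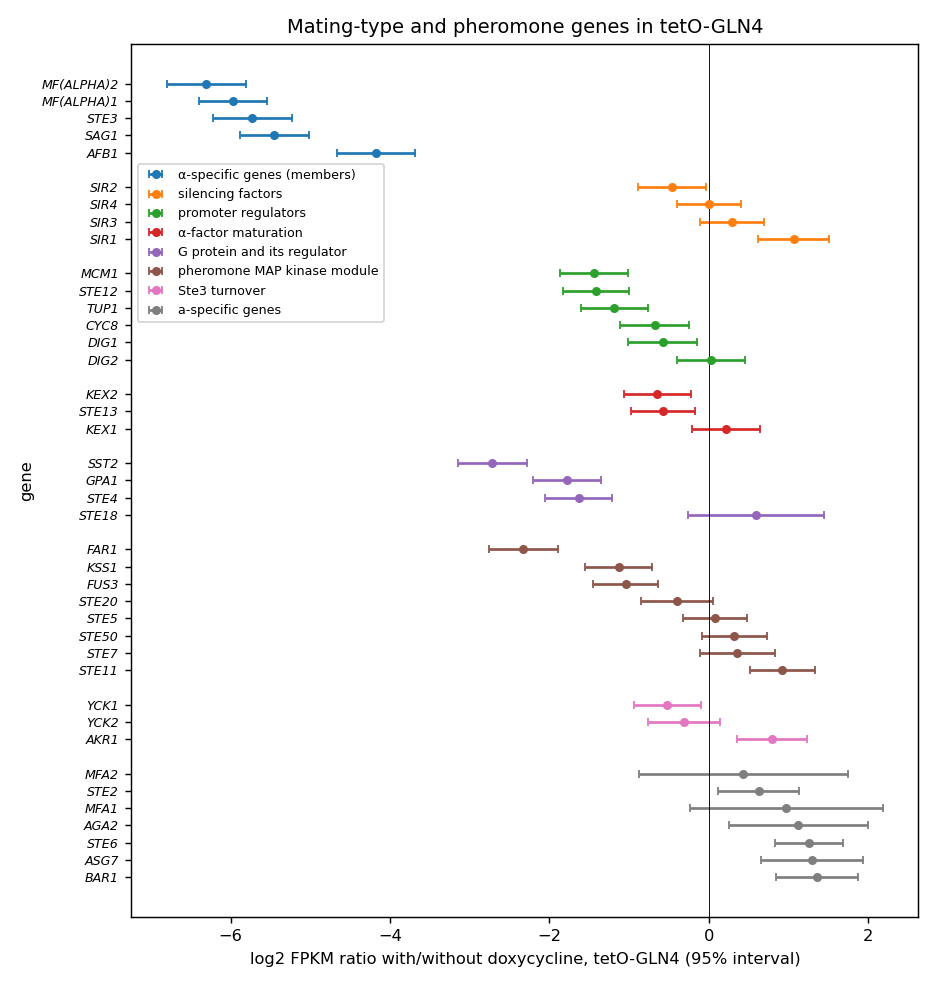
The log2 FPKM ratio with over without doxycycline in tetO-*GLN4* (x axis) of the α-specific genes and of the other listed mating genes (y axis), with 95% intervals, coloured by list. The α-specific genes (-6.30 to -4.18) lie to the left of all other genes shown, of which *SST2* at -2.71 is the lowest.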

How the data were processed

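Total RNA of 12 cultures was sequenced after poly(A)-based stranded library preparation. Per the labels, reads were mapped with TopHat 1.4.0 to sacCer3 (R64). The authors' Cuffdiff runs, 1 per strain, combined 3 cultures into 1 FPKM per condition, scaled both conditions of the strain jointly and gave 95% confidence bounds. Both tables of the authors' own comparisons (fold changes and p-values) were not used. Depth and values per culture are unknown, so precision rests on those bounds alone.

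Log2 ratios (treated over untreated, no pseudocount) were computed within a strain for genes with status OK and an FPKM above 0 in both conditions. The distance from FPKM to upper bound was taken as 2 SDs. These SDs gave the 95% intervals of ratios and a two-sided z test with Benjamini-Hochberg adjustment over all genes of a strain (threshold 0.05). The test was tried on simulated data whose noise was drawn with these same SDs. That trial cannot show whether the SDs fit the real data. The z test takes the place of limma, which needs replicates. Of 7130 genes, 4 (wild type) and 7 (tetO-*GLN4*) had a failed estimate. Positions and sequences are from RefSeq R64, and 6041 of 6048 matched genes lie within their listed loci.

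The members and lists were chosen with earlier results of these data known. Named genes are the members, the silent, *SIR* and promoter-regulator lists, the 2 highest and 2 lowest of each other list, neighbours and overlapping genes, and the 5 genes nearest in pattern. *MFA1*, *FUS3*, *STE5*, *STE20*, *STE50*, *TRX1*, *STU2*, *COX12* and *HO* lie outside that rule and were named after their values were seen. Alternatives were a pseudocount of 1, centring on the median or the FPKM-weighted mean, bounds read as 1.96 SDs, an FPKM minimum of 1, intervals apart, and summed FPKM of related genes. Python 3.11.15, pandas 2.3.3, numpy 2.4.6, scipy 1.17.1 and Biopython 1.88 were used.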

Additional observations from a re-analysis of the deposited data

How the results depend on the processing

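Centring on the FPKM-weighted mean moved the log2 ratios in tetO-*GLN4* to -5.30 for *MF(ALPHA)1*, -5.63 for *MF(ALPHA)2*, -5.06 for *STE3*, -4.78 for *SAG1* and -3.50 for *AFB1*, because it adds the same amount to every gene. It also gave 3955 called genes (3580 higher, 375 lower) in place of 2554 (1236 and 1318), and 8 called neighbours (7 higher, 1 lower) in place of 5 (2 and 3). The pathway genes called went from 22 to 24, but their split turned from 8 higher and 14 lower to 17 higher and 7 lower. Intervals that lie apart gave 2 neighbours. In the wild type the log2 ratio of *STE3* was 0.0019 after centring on the median and 0.0075 after centring on the FPKM-weighted mean, against -0.0012, all far inside its interval. Of the other 49 values computed under an alternative, the ratios kept their direction, those tested in the wild type kept their side of the threshold, and the total counts stayed within 1.5 times. The ratios of the 5 genes in tetO-*GLN4* were not tested and have no threshold. The summed FPKM of both α-factor genes gave a log2 ratio of -6.05 in tetO-*GLN4*. Summing the *MAT* and *HML* copies gave 0 in every condition and so no ratio. No paired analysis was possible because the files hold 1 value per condition and none per culture. For the same reason no culture could be left out.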

Other observations

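Beyond the nearest neighbour of *AFB1*, the next genes on that side that had a ratio also had log2 ratios below 0 in tetO-*GLN4*. The values were -1.26 (95% interval -1.70 to -0.82) for *TRX1*, a thioredoxin gene, and -1.30 (-1.72 to -0.89) for *STU2*, a microtubule polymerase gene. Genes without a ratio were passed over, so these need not be adjacent. On the other side *RIC1* stood at -0.21 (0.47 after centring on the FPKM-weighted mean) and *COX12* at 0.24. These genes were picked after their values were seen, and whether their position bears on the ratios was not tested. Among the 15 lowest log2 ratios of genes with an FPKM of at least 1 in tetO-*GLN4*, the mating-type endonuclease gene *HO* had FPKM values of 74.4 without and 5.27 with doxycycline, a log2 ratio of -3.82.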
